A study of Mus musculus with 4 samples.

Results

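The tenascin family, the 4 genes *Tnc*, *Tnn*, *Tnr* and *Tnxb*, was followed in lymphatic endothelial cells (LECs) of E13.5 mouse embryos. The members were taken by gene symbol from GENCODE, and all 4 were found among the 55385 gene IDs of the deposited table. The libraries came from LECs sorted as CD45- PDPN+ CD31+ cells out of embryos from which inner organs, tail, limbs and the head above the tongue had been taken off, and each library held cells of 8 to 10 embryos. The 2 libraries labelled Osr1-KO came from Osr1 GCE/GCE embryos, in which both copies of *Osr1* carry a knock-in reporter allele. The 2 Osr1 control libraries are wild type in the labels, whereas the study's figure legend describes these controls as Osr1+/+ and Osr1 GCE/+ embryos, and the number of each genotype in a pool is not given in the sources used here. *Osr1* is lacking in the whole embryo in this model, so the sorted cells and their surroundings differ in genotype together. The question was whether LECs from *Osr1*-deficient embryos differ in transcripts of these matrix proteins.

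Tenascins are large glycoproteins of the extracellular matrix (ECM), built from EGF-like repeats, fibronectin type III repeats and a fibrinogen-like globe, and they modulate how cells adhere to fibronectin and collagen. Tenascin-C, encoded by *Tnc*, is abundant in embryonic mesenchyme and around developing tendons and cartilage, and it binds integrins such as α9β1 and αv integrins. Tenascin-W, encoded by *Tnn*, is found in periosteum and a few other mesenchymal sites, tenascin-R, encoded by *Tnr*, belongs to the nervous system, and tenascin-X, encoded by *Tnxb*, is associated with collagen fibrils of loose connective tissue.

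The members lie on 3 chromosomes of the mm10 genome. *Tnr* (ENSMUSG00000015829.13, plus strand, chromosome 1 from 159523769 to 159931729) and *Tnn* (ENSMUSG00000026725.17, minus strand, chromosome 1 from 160085029 to 160153580) are on the same chromosome, *Tnc* (ENSMUSG00000028364.15, minus strand) is on chromosome 4 from 63959785 to 64047015, and *Tnxb* (ENSMUSG00000033327.18, plus strand) is on chromosome 17 from 34670535 to 34719815. Their exons cover 7772 bases for *Tnc*, 5817 for *Tnn*, 12867 for *Tnr* and 12209 for *Tnxb*. RefSeq promoter sequences of build GRCm38.p6 were found for all 4 genes, and *Tnc* has a pair of annotated starts. The 100 bases before a start are shown for each member, to set those whose counts were lower without overlap in the libraries labelled Osr1-KO (*Tnc*, *Tnn* and *Tnr*) beside the other one. Of the second start of *Tnc*, which lies within the transcript from the first, only the 30 bases around a motif are shown. Capitals mark a TATA variant (TATATAA) in *Tnc* and an AP-1 site (TGACTCA, here on the opposite strand) in *Tnxb*.
Tnc, chr4:64047016-64047115, minus strand, before the start at 64047015: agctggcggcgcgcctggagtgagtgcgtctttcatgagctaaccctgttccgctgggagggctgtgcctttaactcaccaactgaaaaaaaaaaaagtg
Tnc, chr4:64046947-64046976, minus strand, before the start at 64046936: aaggagctcccTATATAAgcctgccaaagc
Tnn, chr1:160153576-160153675, minus strand: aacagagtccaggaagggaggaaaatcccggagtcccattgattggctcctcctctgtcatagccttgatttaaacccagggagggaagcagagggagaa
Tnr, chr1:159523669-159523768, plus strand: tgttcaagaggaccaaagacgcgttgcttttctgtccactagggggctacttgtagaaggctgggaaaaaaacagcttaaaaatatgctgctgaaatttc
Tnxb, chr17:34670435-34670534, plus strand: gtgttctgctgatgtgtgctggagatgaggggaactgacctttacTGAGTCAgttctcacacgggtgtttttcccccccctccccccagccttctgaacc

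Motifs were searched on both strands of the whole window from 250 bases before to 50 after each start. The TATA variant of *Tnc* began 29 bases before the start at 64046936, and 3.24% of 32851 windows of this length hold that motif. Farther from the starts, the *Tnc* windows also held TATAAA, which is found in 13.6% of windows, and GGGCGG, the GC box, found in 35.7%. The AP-1 site of *Tnxb* began 55 bases before its start, and 5.20% of windows hold one. None of the searched motifs, the CArG box included (1.63% of windows), was found in the windows of *Tnn* and *Tnr*. *Tnc*, *Tnn* and *Tnr* shared none of these letters in these windows.

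The libraries labelled Osr1-KO held 37865172 and 31586765 reads in genes and the Osr1 control libraries 53438492 and 36535451. *Osr1*, the targeted gene, had normalized counts of 168 and 303 in the libraries labelled Osr1-KO, against 32.8 and 30.4 in the controls, which is opposite to the direction of a loss (log2 fold change 2.80, adjusted p = 0.0262 from limma). A read count per gene cannot separate transcripts of the knock-in allele from those of an intact one, so it is no check of the labels, and the groups are called by their labels. Of the genes of the sort, *Pdpn* was called higher in the libraries labelled Osr1-KO (log2 fold change 0.61, adjusted p = 0.0329 from limma), and *Pecam1*, which encodes CD31, was not (0.23, adjusted p = 0.204). The call of *Pdpn* was lost without replicate 1 or 2 labelled Osr1-KO (log2 fold changes of 0.71 and 0.52) and with edgeR (adjusted p = 0.0568). EdgeR also ended the call of *Osr1* (adjusted p = 0.0568). Over the whole table edgeR called 0 genes, so a call lost with it is not particular to a gene. A robust edgeR fit, added after seeing the data, kept the calls of *Pdpn* (adjusted p = 0.0332) and *Osr1* (adjusted p = 0.0281). Genes of LECs were at high levels in all libraries, with 10 LEC markers summing to 3996 and 3743 TPM (counts per exon length, scaled to the same sum in each library) in the libraries labelled Osr1-KO and to 2282 and 3133 TPM in the controls. *Ptprc*, which encodes the excluded CD45, lay between 0.281 and 0.362 TPM. Markers of other cell types were present as well, and their levels are given below beside the tenascins.

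*Tnc* was by far the most abundant tenascin transcript in the LEC libraries. Its level per exon length was 176 and 173 TPM in the libraries labelled Osr1-KO, against 233 and 250 TPM in the Osr1 control libraries, and its mean over all libraries was above that of 96.4% of the 19479 genes tested. The family summed to 181 and 178 TPM in the libraries labelled Osr1-KO, against 241 and 256 TPM in the controls, and *Tnc* made up 96.5% to 97.4% of it in every library. *Tnxb* was at 3.53 and 3.44 TPM in the libraries labelled Osr1-KO, against 3.53 and 3.88 TPM in the controls. *Tnn* was at 0.912 and 1.19 TPM in the libraries labelled Osr1-KO, against 4.65 and 2.55 TPM in the controls, so its share of the family was 0.504% and 0.667% in the libraries labelled Osr1-KO, against 1.93% and 0.996% in the controls. *Tnr* was the lowest, with 0.190 and 0.155 TPM in the libraries labelled Osr1-KO, against 0.321 and 0.368 TPM in the controls.

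The order of the levels was thus *Tnc*, *Tnxb*, *Tnn* and *Tnr* in both libraries labelled Osr1-KO, with no overlap between neighbours. In the controls *Tnn* and *Tnxb* were not ordered, since *Tnn* lay above *Tnxb* in replicate 1 and below it in replicate 2. Genes are compared here only in TPM, and the 2 groups are compared below in normalized counts, which are read counts divided by the authors' size factors.

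**Figure D1:**
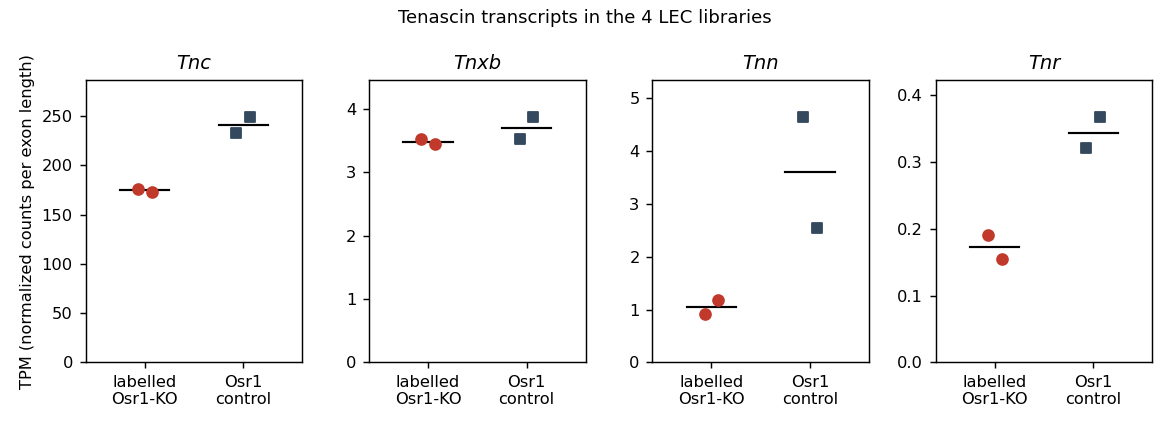
TPM of each tenascin gene in single libraries, with the 2 libraries labelled Osr1-KO on the left (circles) and the 2 Osr1 control libraries on the right (squares). Horizontal lines are group means, and each panel has its own linear axis from 0. *Tnc*, *Tnn* and *Tnr* do not overlap between groups, whereas the *Tnxb* values lie between 3.44 and 3.88 TPM in all libraries.

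*Tnc* and *Tnn* were called lower in the libraries labelled Osr1-KO, whose *Osr1* counts were higher, while *Tnr* and *Tnxb* did not pass the test. These are transcripts of sorted cells. The paper reports increased tenascin-C protein around lymphatic vessels in the skin of older Osr1 GCE/GCE embryos, which is another measure, stage and tissue. Over all genes 2.89% were called (1.75% lower and 1.13% higher), against 2 of the 4 members. A call required a log2 fold change of 0.3 or more in either direction, an adjusted p under 0.05 and a mean above 1 TPM, and *Tnr* with a mean of 0.259 TPM could not have been called at any p. The same limit held for genes of the lists below, such as *Itgb6* (mean 0.726 TPM) among the receptors and *Mmp13* (0.368 TPM) among the proteases. The log2 fold changes of the 4 members had a median of -0.64, against -0.02 for all genes tested. The members whose groups did not overlap were *Tnc*, *Tnn* and *Tnr*, each lower in the libraries labelled Osr1-KO. Of all genes 53.6% did not overlap between the groups, 28.9% being lower and 24.7% higher in the libraries labelled Osr1-KO. The smallest two-sided p of an exact permutation test over these libraries is 0.333, and the adjusted p-values therefore depend on a spread that limma shares between genes and on differences between pools of embryos. In such bulk samples fewer cells of a type and less RNA per cell cannot be told apart.

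*Tnc* had 14587 and 14247 normalized counts in the libraries labelled Osr1-KO, against 18420 and 19271 in the Osr1 control libraries. All 4 libraries were well covered, with 11501 to 25863 reads in the gene, and replicates of a group differed by less than the groups did. The counts in the libraries labelled Osr1-KO were 0.765 times those of the controls (log2 fold change -0.39 with a standard error of 0.08 and a 95% interval from -0.58 to -0.20, adjusted p = 0.0496 from limma). The adjusted p was thus close to the threshold of 0.05. *Tnc* kept its direction but lost its call with each library left out in turn (log2 fold change from -0.42 to -0.35). The call was also lost with edgeR (adjusted p = 0.0792), which called 0 of all genes, and with robust edgeR (adjusted p = 0.0544). DESeq2 gave an adjusted p of 0.00297. *Tnc* shares 176 exon bases with *8030451A03Rik* on the opposite strand, and the library kit does not mark strand. That gene had 18.5 and 21.1 normalized counts in the libraries labelled Osr1-KO, against 22.8 and 28.3 in the controls, far below *Tnc*.

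*Tnn* had 56.5 and 73.1 normalized counts in the libraries labelled Osr1-KO, against 276 and 148 in the Osr1 control libraries. It showed the largest relative decrease among the members, to 0.322 times the control level (log2 fold change -1.64, standard error 0.32, 95% interval from -2.37 to -0.90, adjusted p = 0.0434 from limma), and 0.524% of all genes tested had a lower log2 fold change. These values rest on few reads, 52 and 59 in the libraries labelled Osr1-KO and 387 and 141 in the controls. The controls differed by 1.87 times from each other, and their 95% counting intervals (exact Poisson, for counting error only) of 249 to 305 and 124 to 174 normalized counts did not overlap. Both lay above the intervals of the libraries labelled Osr1-KO, which were 42.2 to 74.0 and 55.6 to 94.3. Without Osr1 control replicate 1 the log2 fold change was -1.19 and the call was lost (adjusted p = 0.0571 from limma). Leaving out replicate 1 or 2 labelled Osr1-KO also ended the call (log2 fold changes of -1.45 and -1.82), as did TMM scaling (adjusted p = 0.0507). The call was lost with edgeR too (adjusted p = 0.0676), which called 0 of all genes, and kept with robust edgeR (adjusted p = 0.0450).

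*Tnr* had 26.1 and 21.1 normalized counts in the libraries labelled Osr1-KO, against 42.0 and 47.1 in the Osr1 control libraries. The groups did not overlap, but the gene had only 24 and 17 reads in the libraries labelled Osr1-KO and 59 and 45 reads in the controls. Its log2 fold change of -0.90 (standard error 0.32, 95% interval from -1.63 to -0.16) did not pass the test after adjustment over all genes (adjusted p = 0.159 from limma). The counting intervals were 16.7 to 38.8 and 12.3 to 33.72 normalized counts in the libraries labelled Osr1-KO, against 32.0 to 54.2 and 34.35 to 63.0 in the controls. Between the groups, all pairs of libraries overlapped in these intervals except replicate 2 of each group. Overlap of such intervals is no test of a difference.

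*Tnxb* was at nearly the same level in all libraries, with 458 and 445 normalized counts in the libraries labelled Osr1-KO, against 439 and 471 in the Osr1 control libraries. The groups overlapped, and the log2 fold change was -0.01 (standard error 0.14, adjusted p = 0.977 from limma), with a 95% interval from -0.32 to 0.30. That interval overlaps the one of *Tnc* and not the one of *Tnn*, and differences between members were not tested. Of the 50-base stretches of *Tnxb* transcripts, 6.41% also occur in its near-identical partial copy *Tnxa*, so *Tnxb* counts are uncertain by that share. *Tnxa* itself had normalized counts of 0 and 2.48 in the libraries labelled Osr1-KO and of 0 in both controls. The shares of such stretches were 1.04% for *Tnc*, 2.71% for *Tnr* and 0% for *Tnn*.

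Of the ratios between members of the same library, 3 are given here. The ratio of *Tnc* to *Tnn* in TPM was 193 and 146 in the libraries labelled Osr1-KO, against 50.02 and 97.74 in the Osr1 control libraries. The ratio of *Tnxb* to *Tnn* was 3.87 and 2.90 in the libraries labelled Osr1-KO, against 0.758 and 1.52 in the controls, and that of *Tnxb* to *Tnr* was 18.5 and 22.3 in the libraries labelled Osr1-KO, against 11 and 10.5 in the controls. The groups did not overlap in any of these 3 ratios, which do not depend on how the libraries were scaled. By the TPM given above, the ratio of *Tnn* to *Tnr* did overlap between the groups. Since *Tnxb* was nearly level, its ratios largely restate the lower *Tnn* and *Tnr*. Of single genes 53.6% did not overlap between the groups, and the share for ratios was not computed. The smallest p an exact permutation test of these ratios could give is 0.333.

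**Figure D2:**
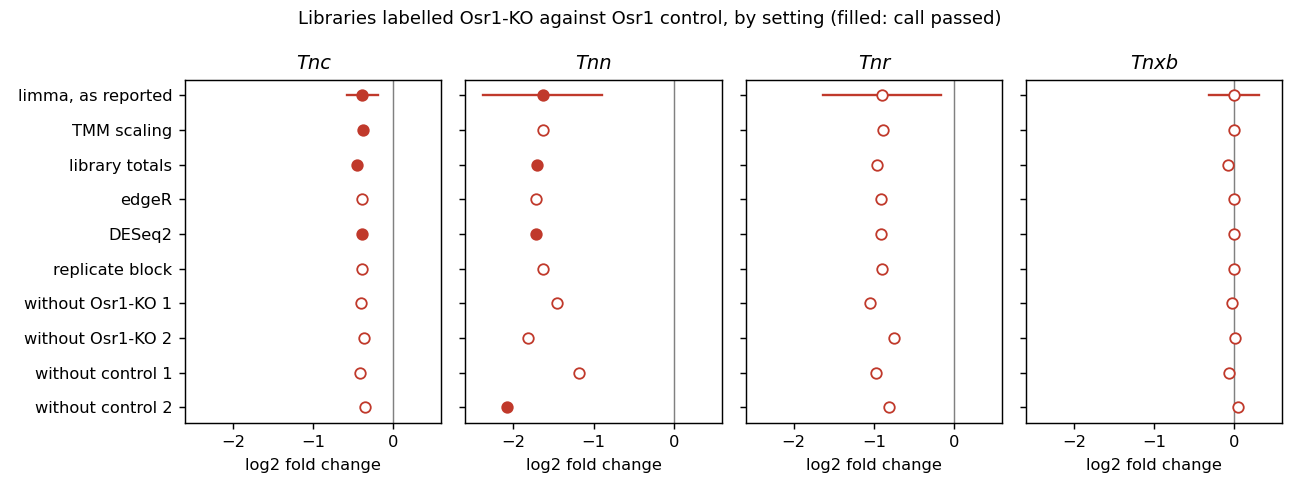
Log2 fold change of each tenascin gene in the libraries labelled Osr1-KO over the Osr1 control libraries, under the reported limma test and other settings, with filled points where the call passed. Bars on the first line are 95% intervals from limma. *Tnc* stays between -0.46 and -0.35 and *Tnn* between -2.08 and -1.19, but many of their points are open, and *Tnxb* stays within 0.1 of 0.

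Receptors through which cells bind tenascins were expressed in the LEC libraries, and 1 of 15 rose in the libraries labelled Osr1-KO, 0 fell and 14 did not pass the test, where 1.13% of all genes were called higher and 1.75% lower. The receptor that rose was *Itga9*, which encodes the α9 integrin subunit that pairs with β1, binds tenascin-C and is needed for lymphatic valves. *Itga9* had 15777 and 14709 normalized counts in the libraries labelled Osr1-KO, against 9868 and 10729 in the Osr1 control libraries (log2 fold change 0.57 with a standard error of 0.09, adjusted p = 0.0329 from limma). *Itga9* lost its call without replicate 1 labelled Osr1-KO (log2 fold change 0.52) and without Osr1 control replicate 1 (0.51). It was also lost with edgeR (adjusted p = 0.0568), which called 0 of all genes, and kept with robust edgeR (adjusted p = 0.0332). *Itgb1*, its partner subunit and the most abundant receptor of the list, had 985 and 945 TPM in the libraries labelled Osr1-KO, against 852 and 838 TPM in the controls, and its log2 fold change of 0.27 did not pass (adjusted p = 0.118 from limma). *Itgav*, the αv subunit, had 13202 and 10161 normalized counts in the libraries labelled Osr1-KO, against 7802 and 9440 in the controls, and did not pass either (0.43, adjusted p = 0.154 from limma).

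The other tenascin receptors of the rule for named genes did not pass the test and pointed both ways. *Itgb3*, the β3 partner of αv, had a log2 fold change of 0.14 (adjusted p = 0.680 from limma), and *Itga8*, the α8 subunit, had one of -0.50 (adjusted p = 0.169). *Egfr*, the EGF receptor, to which EGF-like repeats of tenascin-C bind, had 778 and 1150 normalized counts in the libraries labelled Osr1-KO, against 1816 and 1317 in the controls (-0.71, adjusted p = 0.175 from limma). The paper describes the pairs of tenascin-C with EGFR, ITGA9 and ITGAV as upregulated in both mesenchymal cells and LECs. In the counts here *Itga9* was called higher, *Itgav* was higher without passing and *Egfr* was lower without passing. *Tlr4*, a receptor for the fibrinogen-like globe, had few counts and a log2 fold change of -0.47 (adjusted p = 0.417). The neural receptors *Ptprz1* and *Cntn1*, which encodes contactin 1, a partner of tenascin-R, had log2 fold changes of -0.31 (adjusted p = 0.166) and -0.78 (adjusted p = 0.0650). The median log2 fold change of the 15 receptors was -0.02, the same as for all genes tested. Without replicate 1 labelled Osr1-KO 0 receptors were called, and without control replicate 2 there were 3, of which 1 was higher and 2 were lower.

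Of 16 genes for matrix proteins that bind tenascins, 4 fell in the libraries labelled Osr1-KO, whose *Osr1* counts were higher, 0 rose and 12 did not pass the test, where 1.75% of all genes were called lower. All 16 had a negative log2 fold change, as 52.8% of all genes did. Their median log2 fold change was -0.52, against -0.02 over all genes. *Col12a1*, a collagen of fibril surfaces that binds tenascin-X, fell the most (8516 and 10225 normalized counts in the libraries labelled Osr1-KO, against 19668 and 15103 in the Osr1 control libraries, log2 fold change -0.89, adjusted p = 0.0371 from limma). *Fbln2*, which encodes fibulin-2, fell as well (2535 and 2827, against 4943 and 3894, log2 fold change -0.71, adjusted p = 0.0377 from limma). *Col1a1* of type I collagen (-0.71, adjusted p = 0.0343 from limma) and *Col5a1* of type V collagen (-0.61, adjusted p = 0.0333) were the others that fell, and *Col5a1* shares 99 exon bases with *2810430I11Rik*. *Fn1*, which encodes fibronectin and was among the most abundant genes of the list at 710 and 588 TPM in the libraries labelled Osr1-KO, against 780 and 792 TPM in the controls, did not pass (-0.21, adjusted p = 0.301 from limma). Without replicates 1 and 2 labelled Osr1-KO and control replicates 1 and 2, left out in turn, 0, 1, 2 and 10 genes of this list fell, and edgeR called 0. The summed fibroblast markers were lower in the same libraries (593 and 635 TPM in the libraries labelled Osr1-KO, against 795 and 727 TPM in the controls, or 320 and 363 TPM, against 623 and 507 TPM, without *Thy1*), and their part in these differences was not tested.

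A list of 17 genes for factors linked to *Tnc* regulation was set up as its inducers, but the direction in which each acts was not checked. Of these 17 genes 1 fell in the libraries labelled Osr1-KO, 0 rose and 16 did not pass, where 1.75% of all genes were called lower. Their median log2 fold change was -0.13, against -0.02 over all genes. The gene that fell was *Jun*, which encodes an AP-1 subunit, with 15407 and 17020 normalized counts in the libraries labelled Osr1-KO, against 21838 and 23529 in the Osr1 control libraries (-0.49, adjusted p = 0.0404 from limma, without a call when replicate 1 labelled Osr1-KO or control replicate 2 was left out, adjusted p of 0.169 and 0.0821). *Jun* shares 232 exon bases with *Junos*. The largest decrease that did not pass was that of *Egr1*, an early response gene (-0.77, adjusted p = 0.0896). With the 2 libraries labelled Osr1-KO and then the 2 controls left out in turn, 0, 2, 1 and 3 genes of this list were called. Of 8 proteases that cleave tenascin-C 4 had enough counts to be tested, and limma called 0 of them, as did edgeR and DESeq2, with 0 at an unadjusted p under 0.05. *Mmp2*, which encodes a secreted gelatinase, was the most abundant of them, with 245 and 220 TPM in the libraries labelled Osr1-KO, against 236 and 232 TPM in the controls.

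**Figure D3:**
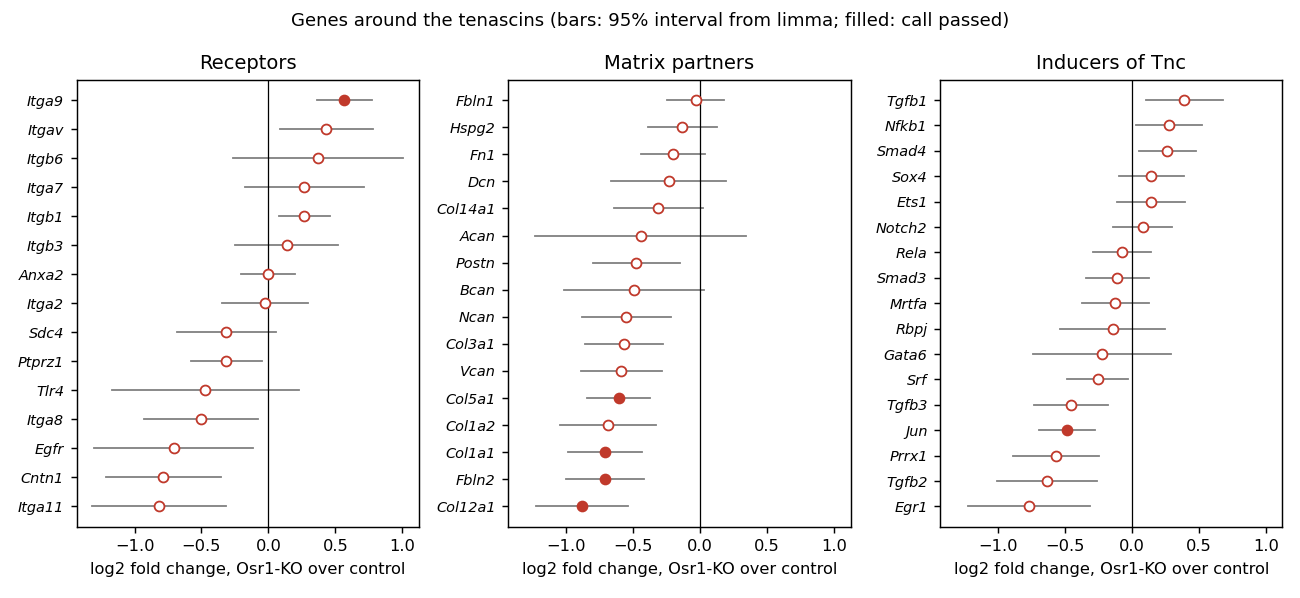
Log2 fold changes in the libraries labelled Osr1-KO over the Osr1 control libraries for 15 tenascin receptors, 16 matrix partners and 17 genes listed as inducers of *Tnc*, with 95% intervals from limma and filled points where the call passed. Receptors lie on both sides of 0 with *Itga9* at the top, whereas all 16 matrix partners lie below 0.

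Tenascins are mainly products of mesenchymal and neural cells in the embryo, and markers of such cells were present in the sorted libraries and differed between the groups. The summed level of 10 fibroblast markers was 593 and 635 TPM in the libraries labelled Osr1-KO, against 795 and 727 TPM in the Osr1 control libraries. *Thy1*, the highest of them, is also known from lymphatic endothelium and rose, and without it the sums were 320 and 363 TPM in the libraries labelled Osr1-KO, against 623 and 507 TPM in the controls. Of these 10 genes 4 fell (*Twist1*, *Twist2*, *Crabp1* and *Osr2*), 1 rose (*Thy1*) and 5 did not pass, where 1.75% of all genes were called lower and 1.13% higher. With TMM scaling 2 fell, *Twist1* and *Twist2* being lost. The 10 tendon markers summed to 372 and 534 TPM in the libraries labelled Osr1-KO, against 847 and 776 TPM in the controls, with *Egr1*, which is also in the list of inducers, as the highest of them, and without *Egr1* to 80.9 and 103 TPM, against 197 and 154 TPM. Of them 2 fell, *Tnmd* and *Fmod*, and 8 did not pass, and *Fmod* lost its call with TMM scaling. Markers of cartilage and bone (217 and 233 TPM in the libraries labelled Osr1-KO, against 426 and 273 TPM), of skeletal muscle (128 and 136, against 251 and 274), of smooth muscle (345 and 314, against 592 and 421), of Schwann cells (171 and 172, against 229 and 212) and of neurons (181 and 250, against 340 and 301) were lower as sums in the libraries labelled Osr1-KO as well. Of each of these lists of 10, 0 cartilage and bone, 4 skeletal muscle, 3 smooth muscle, 1 Schwann cell and 0 neuronal genes fell, and 0 rose. Those that fell were *Myog*, *Actc1*, *Acta1* and *Myh3* of skeletal muscle, *Tagln*, *Acta2* and *Des* of smooth muscle, and *Erbb3* of Schwann cells. *Tagln*, with a mean of 446 normalized counts, shares 1241 exon bases with *Gm48529* (mean 202) and 108 with *Pcsk7* (mean 1633). The part of these genes in its counts was not tested. An unadjusted p under 0.05 was found for 4 cartilage and bone and 7 neuronal genes. Of these 4, *Ibsp* pointed the other way. It had 89.0 and 334 normalized counts in the libraries labelled Osr1-KO, against 15.0 and 26.2 in the controls (log2 fold change 3.06, adjusted p = 0.0889 from limma). Leukocyte markers summed to 216 and 227 TPM in the libraries labelled Osr1-KO, against 190 and 197 TPM in the controls, where 1 rose, *Mrc1*, which LECs express as well. Without *Mrc1* they summed to 84.8 and 74.8 TPM in the libraries labelled Osr1-KO, against 87.2 and 85.3 TPM in the controls. Epithelial and mesothelial markers summed to 87.7 and 207 TPM in the libraries labelled Osr1-KO, against 252 and 211 TPM in the controls, where 0 of 9 tested passed (6 at an unadjusted p under 0.05). These counts depended on single libraries. Without replicates 1 and 2 labelled Osr1-KO and control replicates 1 and 2, left out in turn, 0, 1, 3 and 7 fibroblast markers fell. The same order gave 0, 3, 3 and 3 tendon markers that fell, 0, 3, 5 and 3 of skeletal muscle, 1, 2, 4 and 6 of smooth muscle, and 0, 0, 1 and 4 of Schwann cells. The 1 left without replicate 1 labelled Osr1-KO was *Acta2*, the only named call of these lists that held there. The calls of *Thy1* and *Mrc1* were lost without replicate 1 or 2 labelled Osr1-KO and without control replicate 1, and edgeR called 0 genes of any marker list. None of the marker genes was without reads in all libraries.

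LEC markers were higher as a sum in the libraries labelled Osr1-KO. Of 10 LEC markers 4 rose in the libraries labelled Osr1-KO (*Flt4*, *Pdpn*, *Mmrn1* and *Nr2f2*), 0 fell and 6 did not pass, where 1.13% of all genes were called higher. *Nr2f2* shares 643 exon bases with *B130024G19Rik*. Of 10 markers of blood endothelial cells (BECs) 1 rose, *Kdr*, 0 fell and 9 did not pass. The BEC list pointed both ways, with 6 log2 fold changes below 0 and a median of -0.06. Lower without overlap between the groups, as 28.9% of all genes were, were *Flt1* (-0.96, adjusted p = 0.405 from limma), *Apln* (-0.72, adjusted p = 0.411) and *Nrp1* (-0.68, adjusted p = 0.329). With the libraries left out in the same order 0, 1, 4 and 8 LEC markers rose, and without control replicate 2 no BEC marker rose and 5 fell. *Kdr* also lost its call without replicate 1 labelled Osr1-KO. The part of these differences in the levels of the tenascins was not tested. Set against the summed fibroblast markers of the same library, *Tnc* had log2 ratios of -1.75 and -1.87 in the libraries labelled Osr1-KO, against -1.77 and -1.54 in the Osr1 control libraries, so that on this scale the groups overlapped. Without *Thy1* these ratios were -0.86 and -1.07 in the libraries labelled Osr1-KO, against -1.42 and -1.02 in the controls, which also overlapped. Relative to the skeletal muscle markers (0.47 and 0.36 in the libraries labelled Osr1-KO, against -0.11 and -0.13) *Tnc* was higher in both libraries labelled Osr1-KO than in either control. The tendon markers gave this order by a narrow margin (-1.074 and -1.624, against -1.863 and -1.637). Without *Egr1* the tendon ratios were 1.12 and 0.755, against 0.242 and 0.701. Relative to the LEC markers (-4.50 and -4.43, against -3.29 and -3.65) *Tnc* was lower in both libraries labelled Osr1-KO than in either control. The same held relative to the BEC markers (-3.97 and -3.84, against -3.38 and -3.12). The highest genes of that list were *Cdh5*, *Kdr* and *Pecam1* (means of 1043, 490 and 387 TPM), and *Pecam1* is a gene of the sort. The summed list is thus no measure of blood endothelium alone. *Tnn* had log2 ratios of -9.34 and -9.06 to the fibroblast markers in the libraries labelled Osr1-KO, against -7.42 and -8.15 in the controls, and these did not overlap, nor did they without *Thy1* (-8.46 and -8.25, against -7.07 and -7.64). Ratios of *Tnn* to the tendon markers (-8.67 and -8.81, against -7.51 and -8.25) and to the skeletal muscle markers (-7.13 and -6.83, against -5.75 and -6.75) did not overlap either. *Tnxb*, whose groups overlapped in normalized counts, was higher relative to the fibroblast markers by a mean log2 difference of 0.22 (0.64 without *Thy1*) and relative to the tendon markers by 0.78.

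**Figure D4:**
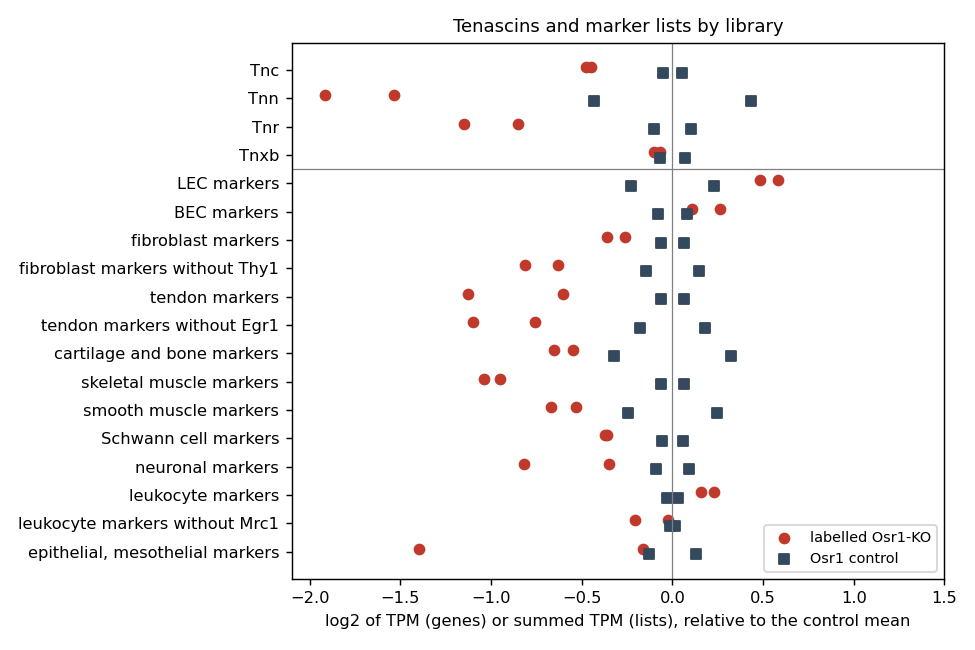
Log2 levels of the tenascin genes (TPM) and of marker lists (summed TPM) in each library, relative to the mean of the Osr1 control libraries, with circles for the libraries labelled Osr1-KO and squares for controls. Mesenchymal, muscle and neural lists lie left of the controls together with *Tnc*, *Tnn* and *Tnr*, whereas LEC markers lie to the right and *Tnxb* stays near 0.

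Other genes with a pattern over the 4 libraries like that of a member were sought by the Euclidean distance between centred log2 values, among 12869 genes with a mean of at least 100. For *Tnn* the nearest were *Tex16* (distance 0.329), *Scg2* (0.355), *Tex12* (0.378), *Sema3g* (0.417) and *Gm4969* (0.443), and 0 genes lay within 0.1. *Tex16* had 111 and 160 normalized counts in the libraries labelled Osr1-KO, against 450 and 317 in the Osr1 control libraries, and *Scg2*, which encodes a secretogranin of neuroendocrine cells, had 55.4 and 61.9, against 196 and 138. For *Tnr* the nearest were *Cox6b2* (0.0662), *Rpl39l* (0.0729), *Tspan33* (0.0942), *Igsf11* (0.106) and *Aqp11* (0.121). *Tnc* lay close to *Slc9a8* (0.0163), *Slc27a1* (0.0282), *Gpihbp1* (0.0293), *Tbl2* (0.0327) and *Higd1a* (0.0352), with 94 genes within 0.1, and *Tnxb* to *Sys1* (0.0138), *Nubp2* (0.0139), *Ireb2* (0.0139) and *Psip1* (0.0167), with 1165 genes within 0.1. The patterns of *Tnc* and *Tnxb* were thus common ones among expressed genes, and with 4 libraries such likeness is only a description.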

How the data were processed

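RNA of sorted LECs was measured in 4 libraries. By the paper's methods the authors aligned reads to mm10 with STAR and counted them per gene with featureCounts. The table the authors deposited holds signal values, namely counts divided by size factors of DESeq2, with tool versions and strand setting not given in the sources used here. Every value (100%) came to whole reads within 0.001 when divided by the smallest value of its library. Of 55385 IDs 55144 matched GENCODE release 21 for mouse without their version. Gene positions and exon lengths are those of this release, which holds another version of the *Tnxb* ID than the deposited table. The exon length and TPM of *Tnxb* may therefore differ slightly from those of the authors' gene model. TPM were computed from normalized counts and union exon lengths.

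Groups were compared with limma 3.58.1 (trend and robust) in R 4.3.3, using log2 of the normalized count with a pseudocount of 1, for the 19479 genes whose mean was 10 or more, with Benjamini-Hochberg adjustment over all of them. The pseudocount makes fold changes of low genes appear smaller. Alternatives were TMM and total scaling, edgeR 4.0.16 and DESeq2 1.42.0 on recovered reads, limma without trend and robust, other filters and pseudocounts, a replicate block, other call rules and each library left out. A crossed block, a robust edgeR fit, the alternatives for marker lists and the marker sums without *Thy1* and *Mrc1* were added after seeing the data. The fits were first run on simulated reads with the same dispersion for every gene and no outlying library. That setting is simpler than these data, so it checks the code and not how well each method suits them. Members, lists and rules were chosen with earlier results of these data known. Named genes were the members, *Osr1*, called list genes, 9 receptors fixed in the rule, the 5 nearest genes per member and overlapping genes. A few further genes (*Fn1*, *Egr1*, *Mmp2*, *Ptprc*, *Ibsp*, *Itgb6*, *Mmp13*) were chosen after their values were seen. A gene near *Tnxb* in this ranking is not reported here. Protein sequences were not analysed here. Figures were drawn with matplotlib 3.10.9.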

Additional observations from a re-analysis of the deposited data

How the results depend on the processing

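Directions of *Tnc*, *Tnn* and *Tnr* were the same under every setting run, but the calls of *Tnc* and *Tnn* were not. *Tnc* lost its call with edgeR (-0.39), robust edgeR (-0.39), limma without trend and robust (-0.39), a mean of at least 50 (-0.39) and the replicate block (-0.39, adjusted p = 0.124 from limma), and its log2 fold change ranged from -0.42 to -0.35 with 1 library left out. *Tnn* lost its call with TMM factors (-1.63), edgeR (-1.72), limma without trend and robust (-1.64) and the replicate block (-1.64, adjusted p = 0.0639 from limma), with a range from -2.08 to -1.19 when 1 library was left out. *Tnr* was never called, was not tested with a mean of at least 50, got no adjusted p from DESeq2, and ranged from -1.04 to -0.75 without 1 library. *Tnxb* changed sign, and ranged from -0.061 to 0.041 with 1 library left out, being positive without replicate 2 labelled Osr1-KO (0.011) and without control replicate 2 (0.041).

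Counts of calls varied widely. Over all genes 562 were called, against 0 with edgeR (4181 at an unadjusted p under 0.05), 528 with robust edgeR, 1469 with DESeq2, 0 with limma without trend and robust (3425 at an unadjusted p under 0.05), 1120 with no filter, 1488 at an adjusted p under 0.1, and 25 to 1427 with 1 library left out. With TMM factors 235 genes were higher and 231 lower, and with library totals 197 were higher and 480 lower, against 221 higher and 341 lower as reported. Receptors called numbered 1, against 0 with edgeR, 5 with DESeq2, 0 with limma without trend and robust, 3 with no filter, 3 at an adjusted p under 0.1, and 0 to 3 with 1 library left out. Matrix partners numbered 4, against 0 with edgeR, 9 with DESeq2, 0 with limma without trend and robust, 8 at an adjusted p under 0.1, and 0 to 10 with 1 library left out. Inducers of *Tnc* numbered 1, against 0 with edgeR, 5 with DESeq2, 0 with limma without trend and robust, 3 with no filter, 5 at an adjusted p under 0.1, and 0 to 3 with 1 library left out. The cause of these differences was not tested.

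Same-numbered libraries did not deviate together (correlation of -0.118 over 19479 genes and of -0.211 over the 12869 with a mean of at least 100). With 2 libraries per group this sets a single difference within each group beside the other. It therefore cannot decide whether the numbers pair the libraries. The replicate block gave 125 calls over all genes, 0 among receptors, 0 among matrix partners and 0 among inducers. Crossed pairing in the replicate block, added after seeing the data, gave 1282 calls over all genes, 4 among receptors, 9 among matrix partners, 6 among inducers and 1 among proteases. Depth limits *Tnr* and *Tnn*, which had 17 to 59 and 52 to 387 reads per library. With 1 library left out, the lone library of its group is assumed to vary like the other group.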
